A study of Homo sapiens with 16 samples.

Results

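PC3 xenograft tumors labelled DDX4 null were compared with PC3 monolayer cells of the same label. The comparison used 8 of the 16 libraries of the series, 4 of DDX4-null tumors and 4 of DDX4-null monolayer cells, and they were chosen by their labels alone. PC3 is an established human prostate cancer line from a bone metastasis, and DDX4 is an RNA helicase of germ cells. The other 8 libraries, 4 of control tumors and 4 of control cells (called wild type in the series' design), served as a reference. RNA was extracted from whole tumors or cultures, treated with DNase, and made into poly(A)-selected, stranded libraries. How the null allele was made, whether the null line is a single clone, the animal that carried the tumors, the age of the tumors and any removal of reads from the host are not stated in the labels. Since nothing tells whether replicates came from separate cultures or animals, p-values cover only the variation among these libraries, possibly technical.

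The deposited table gave read counts for 20356 genes. Total counts were 16151344 to 21763745 per library in DDX4-null cells and 12204254 to 17961710 in DDX4-null tumors. Levels are given as CPM, counts scaled to a library total of 1000000. Changes are log2 ratios of tumors to cells with their standard error (SE) from edgeR's quasi-likelihood fit. A gene is called higher or lower when its Benjamini-Hochberg adjusted p from that test was below 0.05. Of the 20356 genes, 13277 passed the filter on low counts and were tested.

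DDX4 itself could not check the labels. Its counts were 3, 2, 2 and 4 in the 4 null tumors and 2, 4, 0 and 1 in the null cells, and they were 0, 4, 1 and 5 in control cells and 5, 2, 3 and 3 in control tumors. Their pooled counts came to 0.177 CPM in null tumors and 0.0942 CPM in null cells, and an exact two-sided permutation test gave p = 0.143, where 0.0286 is the smallest value that 4 against 4 libraries can give. All of these counts are near the floor of detection in every group. HOXB13, a homeobox factor that marks the prostate lineage, was present in every library, at 618, 592, 686 and 575 CPM in null tumors and 192, 194, 175 and 155 CPM in null cells. Of 13 epithelial markers, 9 reached 1 CPM on average in the null tumors and 11 in the null cells.

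Tumor 1 of the DDX4-null group stood apart from the other 3 null tumors in several gene groups. Its summed fibroblast markers were 13934 CPM against 4743 to 5138 CPM in tumors 2 to 4, its hypoxia response genes 11238 CPM against 5767 to 6474 CPM, and its interferon response genes 864 CPM against 1900 to 5076 CPM. Results that rest on it are given below with and without it. Pearson correlations of log2(CPM + 0.5) were 0.975 to 0.993 among the null tumors and 0.991 to 0.995 among the null cells.

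As background, a xenograft is a mixture of human tumor cells and of the host's connective tissue, vessels, blood cells and often muscle. A read from a host cell can align to the human genome where the sequences of both species are alike, so a gene read in tumors and absent from the cultured cells may come from either species. Tumor tissue also differs from a monolayer in oxygen supply, in contact with matrix and in the nutrients of the medium. In bulk RNA, fewer cells of a type and less RNA per cell cannot be told apart.

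Most tested genes differed between DDX4-null tumors and DDX4-null cells. Of 13277 genes tested, 4589 (34.6%) were higher in tumors and 4682 (35.3%) were lower. A change of at least 2-fold was seen in 1927 higher genes (14.5%) and 1845 lower genes (13.9%). The median change over all genes was −0.00 and the median size of a change was 0.589 on the log2 scale. For many genes the change in the control line differed in size or direction. In a model of all 16 libraries, 13603 genes were tested for that difference, and the tumor-minus-cells change was more positive in the null line for 3532 genes (26.0%) and more negative for 3649 (26.8%). With library totals in place of TMM scaling these counts were 2721 and 4399.

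The null tumors were closer in level to the control tumors than to the null cells. Of the 13277 genes, 98.9% had a mean within 2-fold of the control tumors on the log2(CPM + 0.5) scale, 83.1% within 2-fold of the control cells and 74.1% within 2-fold of the null cells. The null and control cells were within 2-fold of each other for 81.3% of the genes. Single libraries showed the same order. Each null tumor correlated at 0.966 to 0.990 with the control tumors, at 0.904 to 0.941 with the control cells and at 0.857 to 0.885 with the null cells. These values describe the libraries and carry no test. The null cells correlated at 0.908 to 0.916 with the control cells. That the null tumors and the null cells are of one line rests on the labels alone, since DDX4 was too low to check them. Growth as a tumor and a difference between the cells that were cultured and those that formed the tumors cannot be told apart here, for any of the values that follow.

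The genes were then split at a mean of 1 CPM in the DDX4-null cells. Of the 20356 genes, 12427 reached 1 CPM there and 7929 did not. Among the genes of at least 1 CPM, 12421 were tested, of which 3981 (32.1%) were higher in tumors and 4612 (37.1%) lower, with a median change of −0.05. Among the genes below 1 CPM, 856 were tested, of which 608 (71.0%) were higher and 70 (8.18%) lower, with a median of 1.94. The count of lower genes was 145, 115, 136 and 131 without null tumor 1, 2, 3 or 4, as more genes then passed the filter. A gene below 1 CPM in the cells mostly passed the filter through the tumors, so the direction of that group is partly fixed by the choice and supports nothing. These 856 genes held 0.592% of the counts of null tumor 1, 0.277, 0.285 and 0.293% of tumors 2, 3 and 4, and 0.0414 to 0.0432% of the counts of the null cells.

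**Figure D1:**
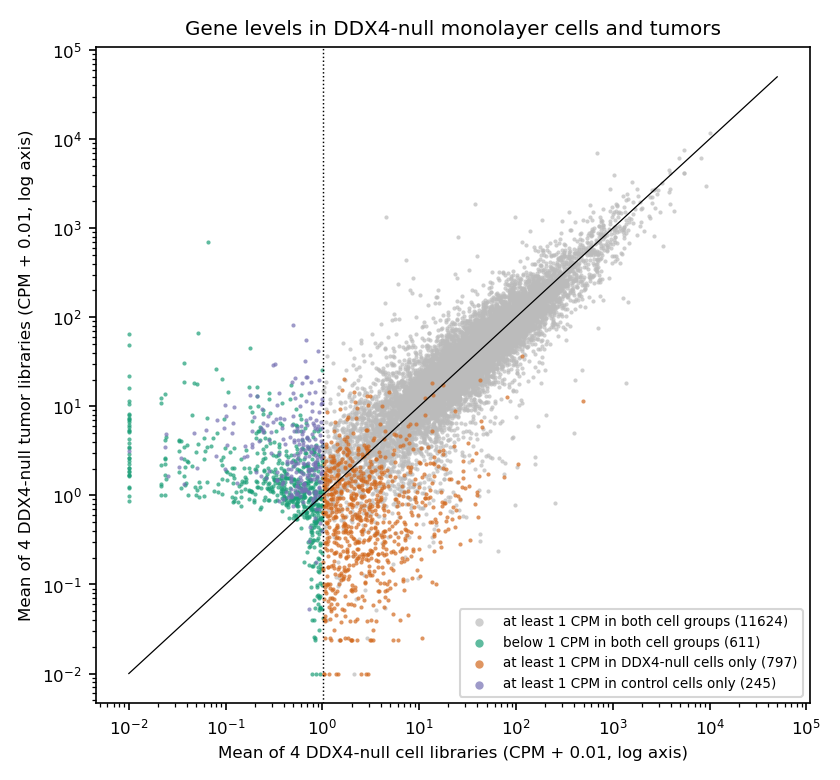
Mean CPM of each of the 13277 tested genes in 4 DDX4-null cell libraries (x axis) and 4 DDX4-null tumor libraries (y axis), both plus 0.01 on log axes; the line marks equal levels and the dotted line 1 CPM in the cells. Colors give the level in null and control cells: the 797 genes that reached 1 CPM in null cells only lie mostly below the line, and the 245 that reached it in control cells only lie mostly above it.

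The control cells, which the split did not use, divided each side further. Both cell groups reached 1 CPM for 11624 tested genes, of which 3925 were higher in null tumors and 4009 lower, with a median of −0.00. Only the null cells reached it for 797 tested genes, of which 56 were higher in tumors and 603 lower, with a median of −2.40. Only the control cells reached it for 245 tested genes, of which 210 were higher and 5 lower, with a median of 2.28. Neither reached it for 611 tested genes, of which 398 were higher and 65 lower, with a median of 1.72. Of the 797 genes of the null cells alone, 757 lay within 2-fold of the control tumors in the null tumors, and of the 245 genes of the control cells alone 241 did. Part of this movement follows from choosing genes at an extreme of the null cells, so it is a description.

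The split placed some genes close to its edge. RASGEF1C and CCDC28B lay just inside, both at 1.00 CPM in null cells, and TMPRSS4 at 0.998 CPM and TEX14 at 0.990 CPM lay just outside. Their tumor means were 0.169 CPM for RASGEF1C, 3.26 CPM for CCDC28B, 0.0319 CPM for TMPRSS4 and 0.770 CPM for TEX14, so genes at the edge moved in both directions.

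Several genes that the DDX4-null cells hardly expressed, but the control cells did, were present in the null tumors. IGFBP3, a secreted carrier of insulin-like growth factors, was at 137, 62.2, 53.6 and 74.3 CPM in the null tumors and at 0.806, 0.168, 0.619 and 0.368 CPM in the null cells. The change was 7.38 (SE 0.43, adjusted p = 7.3e-09). Control cells held 49.9 ± 4.27 CPM (SD, n = 4) and control tumors 66.2 ± 16.9 CPM, so the null cells were the low group. EED, a core subunit of Polycomb repressive complex 2, had 14.6 to 24.8 CPM in the null tumors (mean 20.7 ± 4.32) and 0.483, 0.337, 0.681 and 0.551 CPM in the null cells. Control cells were at 16.9 ± 0.567 CPM and control tumors at 19.1 ± 1.02 CPM. HIKESHI, a carrier that brings HSP70 into the nucleus, went from 0.662 ± 0.108 CPM in null cells to 21.5 ± 1.76 CPM in null tumors, against 29.0 ± 4.81 CPM in control cells. NID2, a linker protein of basement membranes, went from 0.690 ± 0.192 to 21.4 ± 3.43 CPM, against 13.6 ± 2.69 CPM in control cells.

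The other 4 of the 8 most abundant genes of this kind were at 1.56 to 5.23 CPM in control cells. EHD2, a membrane protein of caveolae, was at 0.668 ± 0.251 CPM in null cells, 2.05 ± 0.249 CPM in control cells and 56.1 ± 13.5 CPM in null tumors. ITGA10, a collagen-binding integrin subunit, was at 0.652 ± 0.242 CPM in null cells and 32.4 ± 9.76 CPM in null tumors. The clustered protocadherin PCDHGB2 was at 0.313 ± 0.153 CPM and 29.9 ± 9.43 CPM in these groups, and the lipid carrier APOE at 0.302 ± 0.0853 CPM and 29.0 ± 15.7 CPM. These 8 genes were chosen for a low level in null cells, a higher one in control cells and a rise in null tumors, so a larger rise than in the control line follows from the choice. As a description, the change exceeded that of the control line by 1.92 (ITGA10) to 7.14 (IGFBP3) on the log2 scale.

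Among genes of at least 1 CPM in the null cells, the largest rises included PICALM, a clathrin assembly protein. It was at 158, 132, 144 and 150.2 CPM in the null tumors and at 3.49, 4.60, 4.64 and 4.82 CPM in the null cells, a change of 5.04 (SE 0.14). Control cells held 144 ± 6.28 CPM and control tumors 138 ± 12.8 CPM, so again the null cells were the low group. PTGS2, the inducible cyclooxygenase of prostaglandin synthesis, was at 39.6, 44.9, 35.5 and 27.2 CPM in null tumors against 0.967, 1.01, 0.929 and 1.52 CPM in null cells. Its change was 5.01 (SE 0.22), whereas in the control line PTGS2 went from 123 ± 3.62 CPM in cells to 29.4 ± 8.66 CPM in tumors. The difference between the lines was 7.23 (SE 0.30, adjusted p = 5.1e-13), the most positive among genes of at least 1 CPM in all 4 groups. SNX19, a sorting nexin, rose from 2.50 ± 0.270 to 55.2 ± 8.68 CPM, against 80.3 ± 2.46 CPM in control cells.

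Other large rises were shared with the control line. HPGD, the enzyme that breaks down prostaglandins, went from 19.7, 27.7, 26.6 and 27.9 CPM in null cells to 733, 778, 885 and 788 CPM in null tumors, a change of 4.95 (SE 0.14), and from 50.3 ± 3.54 to 514 ± 169 CPM in the control line. SLC14A1, a urea transporter, went from 6.05 ± 0.406 to 239 ± 9.03 CPM, and from 8.81 ± 1.04 to 239 ± 43.7 CPM in the control line. ANGPTL4, a secreted inhibitor of lipoprotein lipase, went from 7.93 ± 1.46 to 203 ± 69.9 CPM. CCDC141 went from 1.60 ± 0.205 to 51.9 ± 19.5 CPM and TMEM30B, a subunit of lipid flippases, from 1.29 ± 0.145 to 30.6 ± 5.32 CPM. These 5 genes were chosen among genes without overlap between tumors and cells, as the largest rises in the null line. The lack of overlap, and part of any excess over the control line, follow from that choice. As a description, each rise was larger in the null line than in the control line, by 0.68 (SLC14A1) to 2.30 (CCDC141).

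The largest falls were of genes that the null cells expressed and the tumors did not. ESM1, a secreted proteoglycan, had 226, 258, 236 and 283 CPM in null cells and 0.246, 2.06, 0.611 and 0.319 CPM in null tumors. Its fall was −8.19 (SE 0.34), and −9.27 without null tumor 2. CCNA1, a cyclin of germ cells, had 65.6, 60.2, 61.0 and 73.3 CPM in null cells and 0.0819, 0.501, 0.0611 and 0.255 CPM in null tumors, a fall of −8.06 (SE 0.26), and −8.85 without null tumor 2. LEF1, a transcription factor of the Wnt pathway, had 782 counts over the 4 null cell libraries and 1 count over the 4 null tumors, 654-fold lower (95% counting interval 117 to 25871). LEF1 was also near 0 in control cells, at 0.0133 CPM, and its fitted fall of −8.86 became −10.52 without null tumor 3, which held the only count.

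MGAM2, OVOL2, DRAXIN and TRIM31 had no count in any null tumor. Against a floor of 3 counts per group, MGAM2 was at least 60.2-fold lower than in null cells, OVOL2 58.6-fold, DRAXIN 51.6-fold and TRIM31 44.3-fold. Their means in null cells were 2.93, 2.80, 2.49 and 2.09 CPM. OVOL2 is a repressor that keeps epithelial identity, and DRAXIN guides axons. LINC01550 and MARCHF4, a ubiquitin ligase, each had 1 count, in null tumor 2, against means of 5.96 and 5.34 CPM in null cells. Their fitted falls of −8.02 and −7.86 became −9.67 and −9.51 without that tumor. IGFL1, a small secreted growth factor relative, went from 7.72 ± 1.10 to 0.0358 ± 0.0422 CPM. Of these 10 largest falls, 3 (ESM1, CCNA1 and TRIM31) reached 1 CPM in control cells.

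Among genes of at least 1 CPM on average in all 4 groups, the 5 most negative differences between the lines belonged to genes that were highest in null cells. KRT75, a hair follicle keratin, had 1449.5, 1484, 1252 and 1312 CPM in null cells and 23.2, 22.6, 14.1 and 12.3 CPM in null tumors. Control cells held 1.99 ± 0.364 CPM and control tumors 4.23 ± 0.726 CPM, so the null tumors lay between the null cells and the control groups. The difference between the lines was −7.20 (SE 0.31). The adhesion receptor ADGRL2 fell from 76.1 ± 8.25 to 2.30 ± 0.203 CPM, KALRN, a guanine nucleotide exchange factor, from 38.9 ± 3.71 to 4.92 ± 1.23 CPM, the protease ADAMTS3 from 49.5 ± 6.40 to 2.77 ± 1.46 CPM, and the netrin receptor NEO1 by −3.72 (SE 0.18). All 4 were below 3 CPM in control cells.

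LCP1, an actin-bundling protein of blood cells, had 483, 467, 480.3 and 523 CPM in null cells and 10.5 to 12.7 CPM in the 4 null tumors. It was at 0.145 ± 0.0624 CPM in control cells and 10.3 ± 2.40 CPM in control tumors, so it fell in the null line and rose in the control line. The difference was −11.30 (SE 0.27, adjusted p = 6.9e-17). AGR2, a protein disulfide isomerase of secretory epithelia, moved the opposite way, from 54.0 ± 5.27 to 249.8 ± 29.4 CPM in the null line and from 1125 ± 182 to 257 ± 35.5 CPM in the control line. TFF2, a secreted trefoil peptide, held 24.7, 7.85, 3.30 and 12.7 CPM in null tumors and 20.7 ± 2.19 CPM in null cells, a change of −0.78 that did not pass the test (adjusted p = 0.11), and that edgeR called without null tumor 1 (−1.43, adjusted p = 5.5e-05), with the replicate number as a block (−1.05, adjusted p = 0.011) and in the model of 16 libraries (−0.81, adjusted p = 0.046). In the control line TFF2 went from 317 ± 50.1 to 6.96 ± 1.86 CPM.

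**Figure D2:**
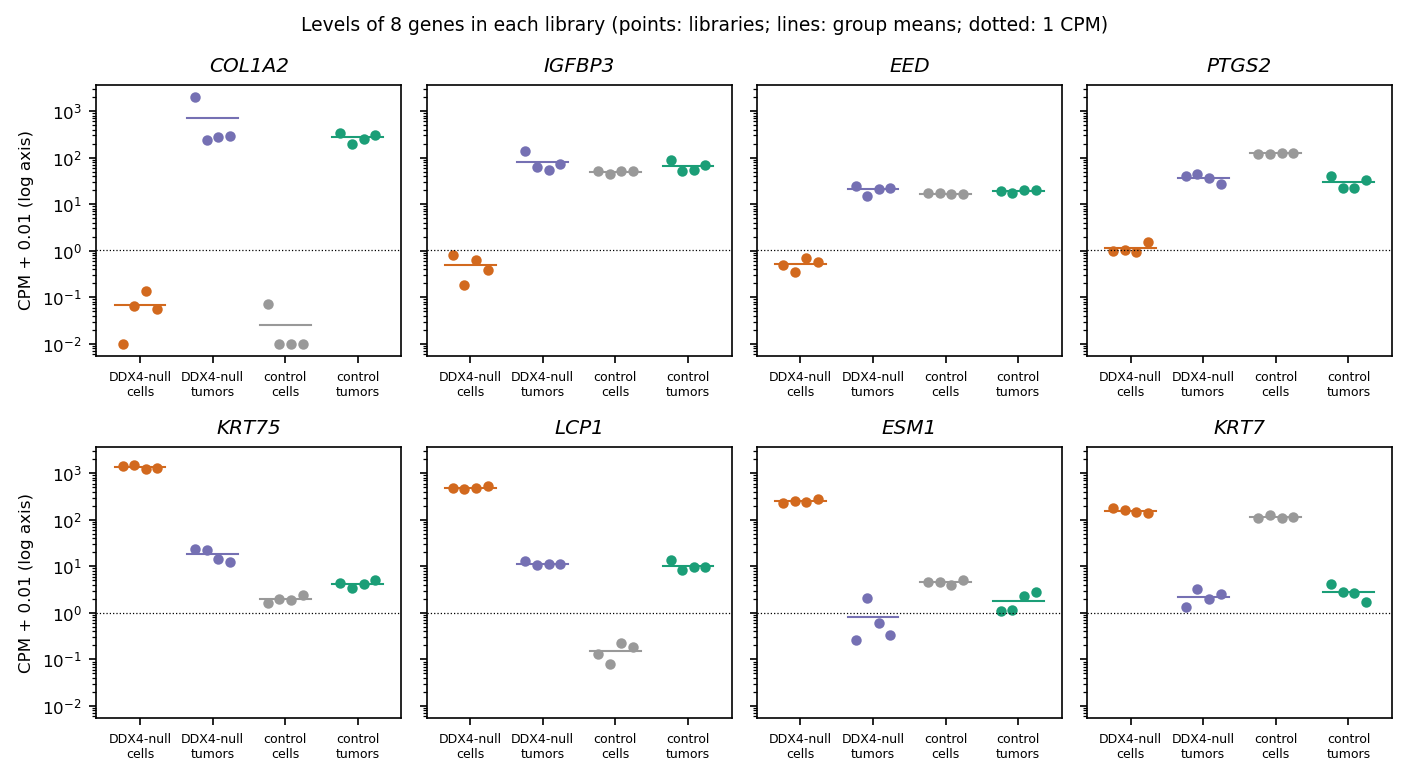
CPM plus 0.01 (log axis) of 8 genes in each of the 16 libraries, by group; points are libraries, lines group means, and the dotted line 1 CPM. IGFBP3, EED and PTGS2 are lowest in DDX4-null cells, KRT75, LCP1 and ESM1 are highest there, and COL1A2 is seen in both tumor groups and near 0 in both cell groups.

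Markers of connective tissue were high in the null tumors. Of 15 fibroblast markers, 14 were tested, and 6 of these were below 1 CPM in null cells, so they passed the filter through the tumors and their direction was fixed by it. Of the other 8, which reached 1 CPM in null cells, 6 were higher in null tumors, against 34.6% of all genes. Their median change was 1.91. COL1A2, a chain of type I collagen, had 2014, 243, 277 and 289 CPM in null tumors and 0, 0.0561, 0.124 and 0.0459 CPM in null cells. Tumor 1 was the high library. The change was 13.55 (SE 1.20) and 12.07 without tumor 1. COL3A1 had 3610.5, 515, 647 and 579.8 CPM in null tumors and 4.09 to 5.05 CPM in null cells, a change of 8.24 (SE 0.74), 6.93 without tumor 1 and 7.65 with the replicate number as a block. COL1A1, which the null cells expressed at 37.3 ± 7.69 CPM, had 4478, 934, 1094 and 1048 CPM in null tumors, a change of 5.70 (SE 0.54), and 4.74 without tumor 1.

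Other fibroblast markers did not follow tumor 1. SPARC, a matrix-binding glycoprotein, had 485, 444, 586 and 239 CPM in null tumors and 7.28 ± 0.396 CPM in null cells. PDGFRB, a growth factor receptor of fibroblasts and pericytes, had 9.26, 7.91, 9.54 and 9.57 CPM in null tumors and 0.236 ± 0.115 CPM in null cells, with 9.16 ± 0.712 CPM in control tumors. COL6A3 rose from 66.6 ± 5.52 to 264 ± 28.6 CPM. The summed fibroblast markers were 1353 to 1590 CPM in null cells and 4458 to 5509 CPM in control tumors. Without tumor 1, 2 markers were called lower. Which reads came from host cells was not tested.

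Most of the 8 highest genes below 1 CPM in both cell groups were matrix genes. MMP2, a gelatinase of stromal cells, had 187 CPM in null tumor 1, at most 26.7 CPM in the other 3, and no count in null cells, at least 1392-fold higher, with a fitted change of 13.17, or 11.73 without tumor 1. IGFBP7, secreted by endothelium and fibroblasts, had 63.3, 40.7, 39.1 and 50.4 CPM and no count in null cells, at least 1169-fold higher. AEBP1, a collagen-binding protein, had 90.4 CPM in tumor 1 and 7.35 to 13.9 CPM in the other 3, and its change of 9.85 was 8.30 without tumor 1 and 12.07 without cell library 1, which held its only counts in null cells. The proteoglycan BGN had 55.3, 15.9, 14.2 and 18.8 CPM, with a change of 8.46 that was 7.73 without tumor 1 and 9.29 without cell library 3. FBLN2, an elastic fiber protein, had 62.6, 10.6, 16.6 and 12.7 CPM, with a change of 4.73 and of 3.72 without tumor 1. The phosphatase PTPN5 had 97.8, 37.3, 16.3 and 27.1 CPM, with a change of 7.96 and of 7.17 without tumor 1. In each of these 6 genes tumor 1 was the highest library.

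Blood cell and muscle markers were read in tumors at lower levels. Of 15 leukocyte markers 6 were tested, of which 5 were below 1 CPM in null cells and passed the filter through the tumors, so no count of calls is given. The list summed to 81.3, 20.3, 33.7 and 46.8 CPM in null tumors and 2.48 to 3.59 CPM in null cells. CSF1R, the macrophage growth factor receptor, had 35.2, 6.24, 11.6 and 17.5 CPM in null tumors and 3 counts over the null cells, a change of 8.54 and of 7.91 without tumor 1. The lysozyme gene LYZ rose from 0.590 ± 0.244 to 13.5 ± 8.98 CPM and PTPRC, the pan-leukocyte phosphatase CD45, from 0.411 ± 0.122 to 3.13 ± 0.473 CPM. Red cell markers were tested only where the tumors carried them over the filter. The beta-globin gene HBB had 2.38, 7.52, 14.7 and 7.66 CPM in null tumors and no count in null cells, at least 209-fold higher.

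Skeletal muscle genes varied between tumors. ACTA1, the actin of skeletal muscle, had 60.5, 60.2, 4.65 and 144 CPM in null tumors and 3 counts over the null cells, all in cell library 2. Its change of 10.46 (SE 1.23) was 9.80 without null tumor 4 and 13.18 without that cell library. TTN, the giant sarcomere protein, had 188, 222, 145 and 118 CPM in null tumors and 15.1 ± 2.44 CPM in null cells. ATP2A1, the calcium pump of fast muscle, had 28.3, 31.7, 5.14 and 64.2 CPM against 2.66 ± 0.523 CPM. The 16 muscle markers summed to 373, 430, 158 and 568 CPM in null tumors and 17.3 to 21.2 CPM in null cells, so tumor 3 was lowest. Of the 4 that passed the filter, 2 (TTN and ATP2A1) reached 1 CPM in null cells and both were higher, and the other 2 passed it through the tumors.

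Other marker lists gave few or mixed calls, to be read against 34.6% higher and 35.3% lower over all genes. Of 8 endothelial and pericyte markers tested, 3 were higher and 3 lower. Of the 7 that reached 1 CPM in null cells 2 were higher and 3 lower. Without null tumor 1 or any single cell library 5 or 6 were higher, with 1 lower without cell library 1 or 3. More members then passed the filter through the tumors. Their sum was 62.0 to 83.7 CPM in null tumors and 63.5 to 71.9 CPM in null cells, so the groups overlapped. Of 4 tested adipocyte markers 3 were lower. The sum over the list went from 114 to 126 CPM in null cells to 10.3 to 15.0 CPM in null tumors. Of 4 tested skin and hair keratinocyte markers, 1 was higher and 2 lower, and a second was higher without any single library except null tumor 4. HEXA, a lysosomal hydrolase, had 22.6, 6.35, 8.74 and 11.6 CPM in null tumors and 1 count over the null cells, with no count in control cells and 6.31 ± 1.52 CPM in control tumors. Its fitted change of 9.22 was 10.67 without cell library 4, which held that count.

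**Figure D3:**
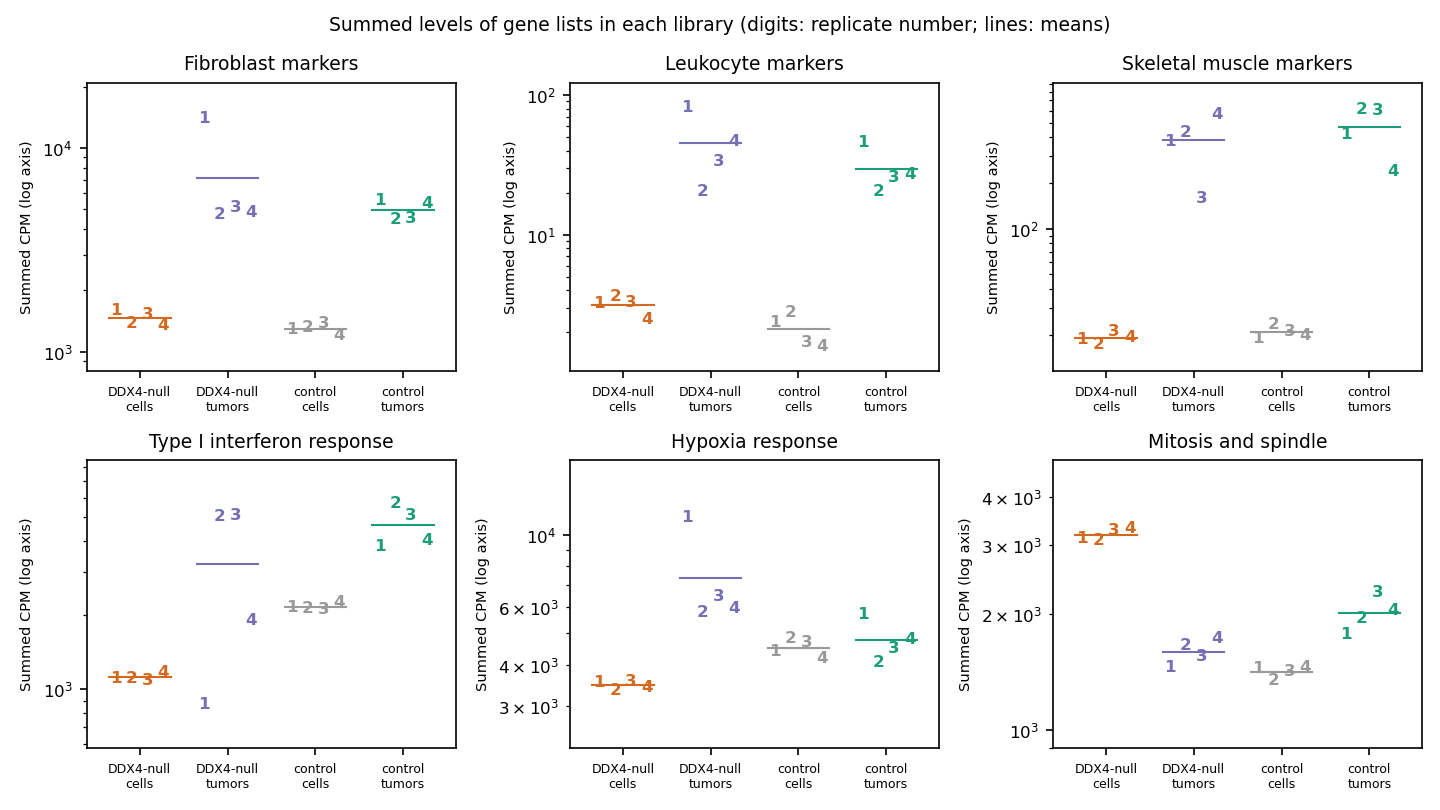
Summed CPM (log axis) of 6 gene lists in each of the 16 libraries; digits are replicate numbers and lines are group means. DDX4-null tumor 1 is highest for fibroblast, leukocyte and hypoxia genes and lowest for interferon genes, and DDX4-null cells are the highest group for mitosis genes.

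Hypoxia response genes were higher in the null tumors. Cells short of oxygen keep hypoxia-inducible factors (HIF), which bind a short core motif and raise genes of glycolysis, acid handling and vessel growth. Of 26 such genes, 24 were tested. Of these 18 (75%) were higher and 2 (8.33%) lower, against 34.6% and 35.3% over all genes. The median change was 0.83, against 0.26 in the control line. The difference between the lines was more positive for 15 of 25 genes tested and more negative for 3. Over all genes it was so for 26.0% and 26.8%. The promoters of PFKFB4 and PPFIA4, the hypoxia genes with the smallest p among called genes that hold a match to ACGTG or GCGTG, are shown because these letters contain the HIF core. The sequences are from RefSeq on GRCh38.p14, 250 bases before to 50 after the start of the gene, chr3:48556754-48557053 on the minus strand and chr1:203026241-203026540 on the plus strand, with matches on either strand in capitals.
PFKFB4: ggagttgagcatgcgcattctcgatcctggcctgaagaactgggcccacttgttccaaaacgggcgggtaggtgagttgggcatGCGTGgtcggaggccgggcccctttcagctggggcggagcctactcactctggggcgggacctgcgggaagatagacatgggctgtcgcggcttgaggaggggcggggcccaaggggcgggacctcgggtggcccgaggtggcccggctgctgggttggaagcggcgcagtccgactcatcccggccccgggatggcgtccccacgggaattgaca
PPFIA4: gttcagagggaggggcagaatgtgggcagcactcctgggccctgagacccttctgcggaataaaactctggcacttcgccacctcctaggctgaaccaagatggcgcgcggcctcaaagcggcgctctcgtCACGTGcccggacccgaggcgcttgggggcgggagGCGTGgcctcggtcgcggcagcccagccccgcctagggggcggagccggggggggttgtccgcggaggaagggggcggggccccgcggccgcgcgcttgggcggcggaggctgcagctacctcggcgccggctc
Of 21 tested hypoxia genes with a promoter in the table, 18 (85.7%) held a match, against 48.4% of all 27305 promoters of that length. Of the 16 that were called higher, 14 did. The list was chosen as genes of the hypoxia response, so a higher share is partly given by the choice. The 27305 promoters also include genes that were not tested here. A match is a description of the letters and not a bound site.

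PFKFB4, a switch of glycolytic flux, had 217, 98.0, 135 and 136 CPM in null tumors and 17.4, 14.9, 16.7 and 15.7 CPM in null cells. Tumor 1 was highest, and the change was 3.18 (SE 0.22). The scaffold protein gene PPFIA4 had 35.6, 23.7, 26.0 and 18.8 CPM against 3.60, 3.82, 3.96 and 3.45 CPM, a change of 2.80 (SE 0.21). STC1, a secreted hormone, went the other way, from 43.7 ± 3.31 to 6.92 ± 2.03 CPM, while it was at 0.300 ± 0.121 CPM in control cells. Of 20 glycolysis enzymes 10 (50%) were higher and 2 (10%) lower, against 34.6% and 35.3% over all genes, with a median of 0.36. PGK1 had 2467, 1498, 1616 and 1686 CPM in null tumors against 586 ± 48.5 CPM in null cells, PGAM1 rose from 102 ± 4.01 to 282 ± 48.2 CPM, and LDHB, which favors lactate use, fell from 782 ± 61.8 to 270.2 ± 35.4 CPM. Without tumor 1 the hypoxia counts were 16 higher and 6 lower with a median of 0.58, and the glycolysis counts 10 higher and 4 lower.

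Basement membrane genes that the null cells expressed themselves were mostly higher in the null tumors. Of 20 basement membrane and matrix genes, all of at least 1 CPM in null cells, 14 were higher and 4 lower, with a median of 0.65. HSPG2, the heparan sulfate proteoglycan perlecan, had 1380.0, 1133, 1469 and 978 CPM in null tumors and 230.3, 153, 218 and 147 CPM in null cells. COL4A5, a chain of type IV collagen, had 219, 181, 226 and 162 CPM against 37.8 ± 2.93 CPM, while control cells held 105 ± 7.60 CPM and control tumors 139.7 ± 17.0 CPM. COL7A1, the anchoring fibril collagen, rose from 4.92 ± 0.827 to 15.3 ± 1.64 CPM. Of the 11 tested integrins that reached 1 CPM in null cells 6 were higher and 3 lower, where 34.6% of all genes were higher and 35.3% lower. The whole list summed to 5920 to 6547 CPM in null cells and 5146 to 6152 CPM in null tumors, so the groups overlapped. ITGA3, a laminin receptor subunit, fell from 2111 ± 233 to 935 ± 79.3 CPM, and ITGB8, which releases TGF-beta from its latent form, rose by 1.04 (SE 0.16), whereas it fell in the control line.

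Of 18 tested proteases and inhibitors 8 (44.4%) were higher and 5 (27.8%) lower, near the 34.6% and 35.3% over all genes. Of the 16 that reached 1 CPM in null cells 6 were higher and 5 lower. The other 2 passed the filter through the tumors, so their direction was fixed by it. PLAU, the urokinase that activates plasminogen, had 539, 738, 559 and 711 CPM in null tumors against 3804, 2977, 3391 and 2953 CPM in null cells, a change of −2.38 (SE 0.14). It was lower in every null tumor than in any null cell library, and it was picked for its small p. The collagenase MMP13 rose from 5.64 ± 0.756 to 95.2 ± 45.0 CPM, with 41.8, 123, 141 and 75.3 CPM in the 4 tumors.

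Type I interferon response genes were higher in the null tumors, with a wide spread. Of 38 such genes 35 were tested. Of these 26 (74.3%) were higher and 1 (2.86%) lower, against 34.6% and 35.3% over all genes. Of the 31 that reached 1 CPM in null cells 22 were higher and 1 lower. The median was 1.77, against 0.83 in the control line. Between the lines 13 of 36 differed in the positive direction and 1 in the negative, against 26.0% and 26.8% over all genes. The list summed to 864, 5020, 5076 and 1900 CPM in null tumors 1 to 4 and to 1089 to 1172 CPM in null cells, so tumor 1 lay below every null cell library and tumors 2 and 3 far above. IRF9, the DNA-binding part of the factor that interferon activates, had 3.52, 15.5, 14.4 and 6.70 CPM in null tumors and 0.537, 0.898, 0.619 and 0.276 CPM in null cells. Its partner STAT2 had 123, 225, 270.1 and 145 CPM against 55.0 ± 7.29 CPM, and IRF7, which amplifies the response, had 34.9, 93.4, 95.1 and 60.9 CPM against 21.8 ± 3.29 CPM. These 3 genes were picked as the called members with the smallest p, so the lack of overlap between their tumor and cell values follows in part from the choice. Without tumor 1, 32 genes were higher and 2 lower, with a median of 2.09.

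Metallothioneins, which bind zinc and copper, rose in each of the 3 members that reached 1 CPM in null cells. Their median was 1.91, and 34.6% of all genes were higher. MT2A had 504, 585, 483 and 704 CPM in null tumors and 175, 166, 156 and 129 CPM in null cells. Its difference between the lines did not pass the test (−0.28, SE 0.17). MT1F rose from 1.56 ± 0.378 to 10.8 ± 1.44 CPM. MT1M had 4.16 ± 1.20 CPM in null tumors and 1 count over the null cells, in cell library 1, and its change of 7.64 was 9.13 without that library.

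Genes of cell division were lower in the null tumors. Of 26 mitosis and spindle checkpoint genes, 25 (96.2%) were lower, against 35.3% of all genes, with a median of −0.90. TPX2, a spindle assembly factor, had 75.9, 94.1, 82.7 and 98.9 CPM in null tumors and 279, 298, 280.2 and 274 CPM in null cells, a change of −1.70 (SE 0.10). TOP2A, which untangles chromosomes, had 113, 113, 107 and 119.5 CPM against 351, 321, 398 and 398 CPM, and the kinetochore protein CENPF fell from 256 ± 16.2 to 84.7 ± 12.8 CPM. The list summed to 1455 to 1726 CPM in null tumors and 3085 to 3316 CPM in null cells, with 1347 to 1451 CPM in control cells and 1771 to 2266 CPM in control tumors. Thus the null cells were the high group, and in the control line the median was 0.37. The difference between the lines was negative for 25 of 26 genes, against 26.8% of all genes tested for a difference.

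DNA replication genes changed less. Of 28 S phase genes 6 (21.4%) were higher and 12 (42.9%) lower in null tumors, against 34.6% and 35.3% over all genes. Their median was −0.10, whereas the control line had a median of 1.05. The difference was negative for 24 of 28, against 26.8% of all genes tested for a difference. POLA1, the polymerase that starts new strands, fell from 61.8 ± 5.17 to 34.0 ± 2.92 CPM. CCNE2, a cyclin of S phase entry, rose from 5.79 ± 0.873 to 12.7 ± 1.24 CPM.

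Heat shock chaperones fell in the null line. Of 11 tested, 9 (81.8%) were lower and 1 (9.09%) higher, against 35.3% and 34.6% over all genes. Their median was −1.04, against 0.38 in the control line. All 11 differences were negative, against 26.8% of all genes tested for a difference. HSPH1, a partner of HSP70, had 93.2, 146, 138 and 138 CPM in null tumors and 491, 476, 582 and 521 CPM in null cells. HSPD1, the mitochondrial chaperonin, fell from 1191 ± 61.2 to 404 ± 48.0 CPM. BAG3, a co-chaperone of autophagy, was the member that rose, from 89.6 ± 11.3 to 242 ± 18.2 CPM. Summed chaperones were 5352 to 6562 CPM in null tumors, 11818 to 12854 CPM in null cells and 4070 to 4882 CPM in control cells, so here too the null cells were the high group.

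Amino acid transporters were mostly lower, and genes of protein stress were split. Of 12 amino acid transporters 10 (83.3%) were lower and 1 (8.33%) higher, against 35.3% and 34.6% over all genes. Their median was −1.37, against −1.69 in the control line. Of 12 differences between the lines 6 were positive and 2 negative, against 26.0% and 26.8% over all genes. SLC7A5, which imports large neutral amino acids, had 106, 161, 172 and 167 CPM in null tumors and 708, 639, 616 and 544 CPM in null cells. The glutamate transporter SLC1A3 fell from 74.5 ± 3.75 to 1.71 ± 1.26 CPM, and SLC7A8 from 44.2 ± 4.65 to 5.79 ± 2.32 CPM. Of 26 unfolded protein response and ATF4 target genes 13 were higher and 10 (38.5%) lower, against 34.6% and 35.3% over all genes. The members with the smallest p all fell. ATF3 had 9.83, 23.6, 23.2 and 17.4 CPM in null tumors and 203, 166, 189 and 174 CPM in null cells, CHAC1, which degrades glutathione, fell from 167 ± 23.4 to 25.1 ± 5.63 CPM, and ASNS, the asparagine synthetase, from 307 ± 28.7 to 77.1 ± 13.7 CPM. The control line had a median of −1.06 for this list. Of 26 differences 22 were positive, against 26.0% of all genes tested for a difference.

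Inflammatory genes fell less than in the control line. Of 29 tested NF-kB targets and cytokines 3 (10.3%) were higher and 16 (55.2%) lower in null tumors, against 34.6% and 35.3% over all genes. Of the 27 that reached 1 CPM in null cells 2 were higher and 16 lower. The median was −0.91, against −2.77 in the control line. Of 31 differences 28 were positive and 2 negative, against 26.0% and 26.8% over all genes. LCN2, a secreted iron-trapping protein, had 0.328, 0.501, 0.367 and 0.255 CPM in null tumors and 39.8, 55.3, 37.0 and 38.0 CPM in null cells, and 233 ± 31.6 CPM in control cells. The cytokine IL1B fell from 71.2 ± 5.77 to 2.42 ± 1.41 CPM, and control cells held 870.4 ± 120.3 CPM. The list summed to 743 to 934 CPM in null tumors, 1257 to 1370 CPM in null cells and 6293 to 7120 CPM in control cells. Without tumor 1, 5 members were higher and 17 lower.

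Of 17 TGF-beta and BMP genes 4 were higher and 9 (52.9%) lower, where 35.3% of all genes were lower. The ligand TGFB2 fell from 108 ± 10.4 to 10.2 ± 1.99 CPM, and the BMP targets ID1 and ID3 from 116 ± 6.40 to 10.9 ± 2.40 CPM and from 26.5 ± 3.57 to 0.867 ± 0.286 CPM. ID1 also fell in the control line, from 92.5 ± 5.94 to 10.9 ± 0.817 CPM, and the difference between the lines, −0.20 (SE 0.19), did not pass the test. Of 21 tested Wnt genes 2 were higher and 13 (61.9%) lower, with a median of −0.53 against 0.04 in the control line. Besides LEF1, the ligand WNT7B fell from 89.8 ± 9.89 to 26.5 ± 7.55 CPM and the receptor FZD7 from 7.45 ± 1.93 to 1.76 ± 0.683 CPM.

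Epithelial markers were mostly lower, and mesenchymal genes did not move as a block. Of 11 tested epithelial markers 1 (9.09%) was higher and 7 (63.6%) lower, against 34.6% and 35.3% over all genes. Their median was −0.50, against 0.10 in the control line. KRT7, a simple epithelial keratin, had 1.31, 3.17, 1.96 and 2.49 CPM in null tumors and 177, 160.2, 149 and 142 CPM in null cells, and it also fell in the control line, from 115 ± 7.08 to 2.80 ± 0.981 CPM. CDH1, the epithelial cadherin, was the member that rose, from 6.95 ± 0.303 to 33.2 ± 7.19 CPM. Of 14 tested epithelial-mesenchymal transition genes 7 (50%) were higher and 6 (42.9%) lower, against the 34.6% and 35.3% over all genes. Of the 13 that reached 1 CPM in null cells 6 were higher and 6 lower. ESRP1, a splicing regulator of epithelia, fell from 96.9 ± 6.95 to 0.771 ± 0.407 CPM, while control cells held 1.21 ± 0.271 CPM. ZEB2, a repressor of CDH1, had 28.8, 14.8, 14.1 and 17.4 CPM in null tumors and 1.09 ± 0.109 CPM in null cells, so CDH1 and ZEB2 rose together.

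Of 16 tested adhesion molecules of the immunoglobulin family 5 (31.2%) were higher and 7 (43.8%) lower, near the shares over all genes. Of the 15 that reached 1 CPM in null cells 4 were higher and 7 lower. NCAM1 fell from 19.8 ± 2.15 to 0.414 ± 0.232 CPM, CADM1 from 28.4 ± 1.92 to 2.44 ± 0.553 CPM and JAM3 from 51.4 ± 3.40 to 1.71 ± 0.510 CPM. NCAM1 and CADM1 had no count in control cells and JAM3 was at 0.828 ± 0.212 CPM there. Of 12 tested prostate and androgen response genes 8 (66.7%) were higher and 3 (25.0%) lower, and 7 and 5 without tumor 1. Over all genes 34.6% were higher and 35.3% lower. Of the 11 that reached 1 CPM in null cells 7 were higher and 3 lower. The other, STEAP4, passed the filter through the tumors, so its direction was fixed by it. HOXB13 rose by 1.77 (SE 0.11) and also rose in the control line (159 ± 7.61 to 517 ± 16.5 CPM). STEAP4, a metal reductase induced by androgen, had 4.91 ± 3.10 CPM in null tumors and 1 count over the null cells, and its change of 7.87 was 9.38 without cell library 2, which held that count. Of 10 tested germ cell and piRNA genes, the pathway of DDX4, 2 (20%) were lower, against 35.3% of all genes. Without cell library 1, 2 or 3 or null tumor 2 or 4, 1 or 2 others were called higher. PLD6, a mitochondrial nuclease of piRNA processing, fell from 38.2 ± 3.43 to 10.5 ± 1.24 CPM.

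**Figure D4:**
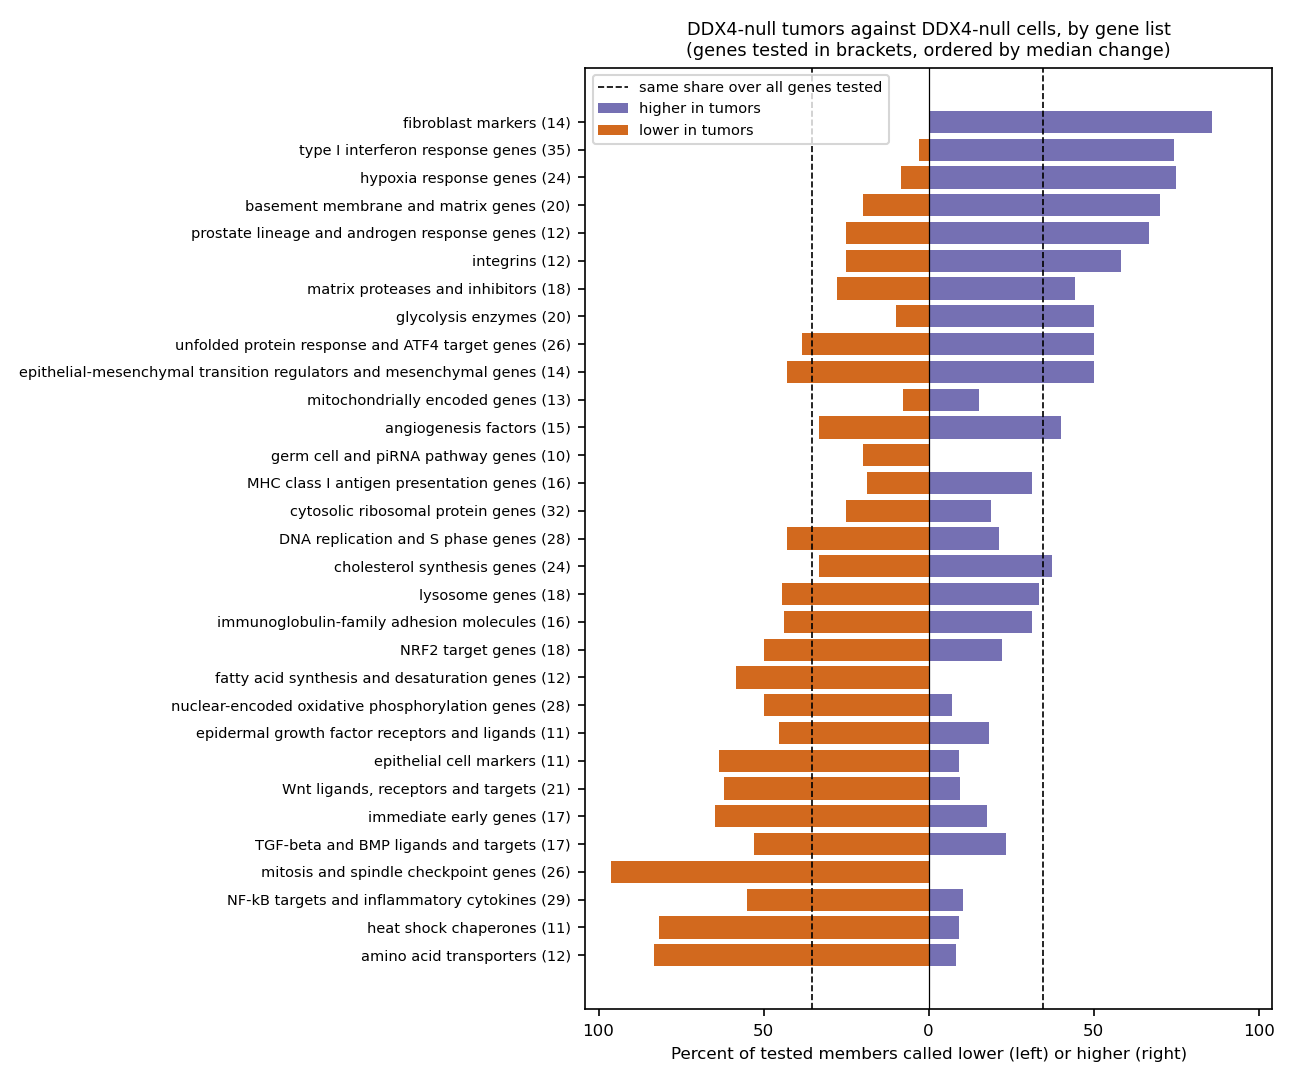
Percent of the tested members of each gene list that were called higher (right) or lower (left) in DDX4-null tumors than in DDX4-null cells, for lists with at least 10 tested genes, ordered by their median change; dashed lines mark the shares over all 13277 genes, 34.6% higher and 35.3% lower. Members below 1 CPM in null cells (6 of the 14 fibroblast markers) passed the filter mostly through the tumors. Fibroblast, interferon, hypoxia and basement membrane genes lie far to the right and amino acid transporters, chaperones, NF-kB targets and mitosis genes to the left.

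The counts of the other lists follow. Of 32 cytosolic ribosomal protein genes 6 were higher and 8 lower, and 13 were lower without null tumor 1 and 5 without cell library 2 or 4 or null tumor 2 or 3. Of 24 cholesterol synthesis genes 9 were higher and 8 lower, and of 18 lysosome genes 6 and 8. Of the 17 lysosome genes that reached 1 CPM in null cells 5 were higher and 8 lower. Of 15 tested angiogenesis factors 6 were higher and 5 lower. More members lower than higher were found in the next lists. Of 28 nuclear-encoded oxidative phosphorylation genes 2 were higher and 14 lower, of 18 NRF2 targets 4 and 9, and of 17 immediate early genes 3 and 11. Of 12 fatty acid synthesis genes 7 were lower, and of 11 tested epidermal growth factor receptors and ligands 2 were higher and 5 lower. Of the 10 receptors and ligands that reached 1 CPM in null cells 1 was higher and 5 lower. Of 16 MHC class I genes 5 were higher and 3 lower, of 7 tested replication-dependent histone genes 4 and 1, and of 13 mitochondrially encoded genes 2 and 1. Of 6 tested mucins 3 were higher, 2 of them among the 4 that reached 1 CPM in null cells. These counts are read against 34.6% higher and 35.3% lower over all genes.

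The change also differed by chromosome. The median change over the tested genes of a chromosome was 0.55 for chromosome 7, 0.40 for chromosome X, 0.37 for chromosome 14, 0.36 for chromosome 19 and 0.33 for chromosome 11. It was −0.45 for chromosome 21, −0.39 for chromosomes 9 and 13 and −0.35 for chromosome 8. The spread of the 23 chromosome medians was 0.282 (SD) in the null line and 0.139 in the control line, where chromosome 7 had a median of −0.16. On chromosome 7, 62.0% of the tested genes were higher. Set against the same mean of the null cell libraries, each tumor gave nearly the same medians, with an SD over the 4 tumors of 0.0104 to 0.0590. The spread among the cell libraries does not enter that SD. With the chromosome medians subtracted from the changes, 4430 genes were higher and 4467 lower.

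Neighbouring genes moved together at PICALM. EED, HIKESHI, ME3 and PRSS23 follow PICALM on chromosome 11 in gene order, and all 5 were low in null cells and higher in null tumors. ME3, a malic enzyme of mitochondria, had 11.1, 15.9, 12.4 and 14.7 CPM in null tumors and 0.161, 0.281, 0 and 0.230 CPM in null cells, and control cells held 11.3 ± 1.77 CPM. The serine protease gene PRSS23 rose from 15.5 ± 1.13 to 203 ± 46.3 CPM. Before PICALM in gene order, CREBZF rose from 27.4 ± 2.19 to 175 ± 18.1 CPM and SYTL2 by 1.45 (SE 0.11), and beyond PRSS23 the Wnt receptor gene FZD4 changed by 0.57 (SE 0.10) and TMEM135 by −0.31 (SE 0.11). The change was thus largest from PICALM to ME3 and smaller on both sides. This stretch was chosen after its values were seen and is a description.

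**Figure D5:**
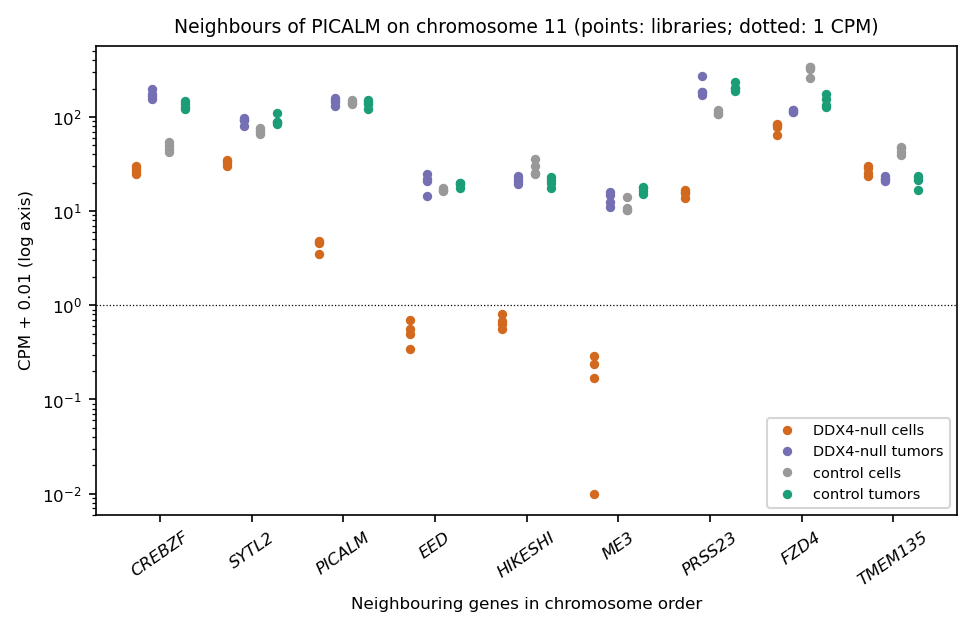
CPM plus 0.01 (log axis) of 9 neighbouring genes of chromosome 11 in gene order (x axis, not to scale) in each of the 16 libraries, colored by group. The DDX4-null cells lie far below the other 3 groups from PICALM to ME3, and the DDX4-null tumors lie with the control tumors.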

How the data were processed

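PolyA-selected RNA of 16 PC3 libraries was sequenced. Per the submitters' processing notes, reads were trimmed with Trimmomatic 0.39, aligned to GRCh37 with STAR 2.7.10a and counted with featureCounts 2.0.3; the annotation, the strand setting and whether host reads were taken out are not stated in the labels. The authors deposited whole-number counts per gene for 20356 genes, which were used as they stand. Of the identifiers, 19446 were named from the name table, 65 from GENCODE and 845 had no symbol (0.211 to 0.310% of counts).

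CPM values are counts scaled to a library total of 1000000, and each mean ± SD covers 4 libraries. Intervals of count ratios cover counting error only. The main test was edgeR 4.0.16 (R 4.3.3) with TMM scaling, its default expression filter and the quasi-likelihood test on the 8 DDX4-null libraries, with Benjamini-Hochberg adjustment at 0.05. The difference from the control line was tested in a 4-group model of all 16 libraries. No 2 replicates of either DDX4-null group agreed within sampling noise. On simulated counts for the 13277 tested genes, edgeR recovered 23.9, 85.1 and 100% of log2 changes of 0.5, 1 and 2, with 6.08% of its calls false, against 14.9% for DESeq2.

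Named genes were the 10 largest rises and falls, the 8 most abundant rises below 1 CPM in each class, the 5 largest differences in each direction, up to 3 members of each list by p, marker genes, and the 2 genes nearest to 1 CPM on each side; some genes are not reported here. The largest rises and falls and the most abundant rises were taken from called genes with no overlap between tumor and cell libraries. The members and the gene lists were chosen with earlier results of these data known. Neighbouring genes were examined after the data were seen. Promoters and gene order come from RefSeq on GRCh38.p14. DESeq2 1.42.0, other scalings, filters, splits at 0.5 and 2 CPM, a replicate block and leaving out each library were alternatives.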

Additional observations from a re-analysis of the deposited data

Results flagged for a closer look

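Within the DDX4-null groups of 4 libraries, 310 sets of values were checked for a library far from its group, and 32 were found. The check is set to find about 1 in 20 by chance, but that rate does not strictly hold here. A set with counts in 1 library alone is always found, and some sets share genes. DDX4-null tumor 1 was the high library for collagens and other matrix genes, with 3610.5 CPM of COL3A1 (515 to 647 CPM in the other tumors), 4478 CPM of COL1A1 (934 to 1094 CPM) and 2014 CPM of COL1A2 (243 to 289 CPM). It was also high for MMP2 at 187 CPM (at most 26.7 CPM), AEBP1 at 90.4 CPM (7.35 to 13.9 CPM), FBLN2 at 62.6 CPM (10.6 to 16.6 CPM) and BGN at 55.3 CPM (14.2 to 18.8 CPM). Its summed fibroblast markers were 13934 CPM, its hypoxia response genes 11238 CPM, and its skin and hair keratinocyte markers 172 CPM, above the 122 to 130.1 CPM of the other tumors. PRSS23 at 271 CPM (169.6 to 185 CPM) and FZD7 at 2.79 CPM (1.39 to 1.47 CPM) were high there too. In the same tumor HSPH1 was low at 93.2 CPM (138 to 146 CPM), as were SLC7A5 at 106 CPM (161 to 172 CPM) and the summed NF-kB targets at 743 CPM (929 to 934 CPM).

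In other libraries the distances were smaller or rested on few counts. DDX4-null tumor 4 held 0.957 CPM of JAM3 against 1.88 to 2.06 CPM in the other tumors. Cell library 1 was low for PICALM at 3.49 CPM (4.60 to 4.82 CPM) and HPGD at 19.7 CPM (26.6 to 27.9 CPM). Cell library 2 was high for LCN2 at 55.3 CPM (37.0 to 39.8 CPM) and for the 13 mitochondrially encoded genes, which summed to 60508 CPM against 33270 to 35487 CPM, and low for COL4A5 at 33.5 CPM (38.8 to 39.6 CPM). Cell library 4 was high for PTGS2 at 1.52 CPM (0.929 to 1.01 CPM) and low for the summed prostate genes at 355 CPM (389 to 394 CPM). A few counts against 0 in the other 3 libraries gave LEF1 at 0.0611 CPM in tumor 3, LINC01550 and MARCHF4 at 0.0557 CPM in tumor 2, and TMPRSS4 at 0.128 CPM in tumor 4. Among the cells they gave AEBP1 at 0.107 CPM and MT1M at 0.0537 CPM in library 1, ACTA1 at 0.168 CPM and STEAP4 at 0.0561 CPM in library 2, and HEXA at 0.0459 CPM in library 4.

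The change from cells to tumors differed between the DDX4-null and the control line by edgeR's test of the difference for 3532 genes in the positive and 3649 in the negative direction. The differences on the log2 scale for the genes named here follow, null minus control. More positive in the null line were PTGS2 (7.23), IGFBP3 (7.14), ME3 (5.80), HIKESHI (5.67), STEAP4 (5.47), EED (5.28), PICALM (5.26), SNX19 (5.07), TFF2 (4.89), AGR2 (4.48) and NID2 (4.36). Smaller positive differences were seen for PCDHGB2 (4.00), APOE (3.28), IRF9 (3.19), ZEB2 (2.99), PRSS23 (2.98), MT1M (2.80), IL1B (2.64), SPARC (2.61), LCN2 (2.55) and EHD2 (2.38). Positive differences were also found for CCDC141 (2.30), COL4A5 (2.12), TMEM30B (2.08), PFKFB4 (2.01), MMP13 (1.96), ITGA10 (1.92), FZD4 (1.82), HPGD (1.75), PPFIA4 (1.74), ASNS (1.67) and ITGB8 (1.67). Smaller ones were those of ANGPTL4 (1.64), CREBZF (1.35), IRF7 (1.33), SYTL2 (1.22), CDH1 (1.22), COL7A1 (1.20), MT1F (1.00), PGK1 (0.98), STAT2 (0.95), TMEM135 (0.91) and HSPG2 (0.74). The least positive were TTN (0.71), SLC14A1 (0.68) and CHAC1 (0.67). More negative in the null line were LEF1 (−12.79), LCP1 (−11.30), CADM1 (−11.27), DRAXIN (−11.12), NCAM1 (−10.86), LINC01550 (−9.51), IGFL1 (−9.13), TMPRSS4 (−7.37), KRT75 (−7.20), ESM1 (−6.77) and ESRP1 (−5.98). Next came STC1 (−5.79), ADGRL2 (−5.61), KALRN (−5.20), ADAMTS3 (−4.95), SLC7A8 (−4.83), NEO1 (−4.69), MARCHF4 (−4.31), RASGEF1C (−4.21), JAM3 (−4.04), CCNA1 (−3.82) and SLC1A3 (−3.63). Negative differences of a middle size were seen for PLD6 (−1.97), TPX2 (−1.94), CCNE2 (−1.87), TOP2A (−1.85), HSPH1 (−1.80), PLAU (−1.74), CENPF (−1.51), POLA1 (−1.35), TEX14 (−1.21) and FZD7 (−1.13). The smallest negative differences were those of LDHB (−1.12), HSPD1 (−1.05), COL6A3 (−0.94), ID3 (−0.86), BAG3 (−0.75), TGFB2 (−0.45) and ITGA3 (−0.40). Values for genes with a group at or near 0 counts, among them LEF1, DRAXIN, LINC01550, IGFL1, MARCHF4, NCAM1, CADM1 and TMPRSS4, depend on the prior count of the fit.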

How the results depend on the processing

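No named gene that was called changed direction under an alternative run. List medians that are no calls did change sign: endothelial markers from −0.14 to as high as 1.48 (DESeq2), keratinocyte markers from −0.73 to 0.49 and mesenchymal genes from 0.25 to −0.47 (both with a filter at 5 CPM), as did, near 0, those of lysosome, germ cell, cholesterol and MHC class I genes and chromosome 12. Genes below 1 CPM in null cells depended most on the settings, since the filter decides which of them are tested. Their higher count of 608 was 1022 with DESeq2, 1257 with no filter, 68 with a filter at 5 CPM and 395 with a split at 0.5 CPM. Their lower count of 70 was 322 with DESeq2, 477 with no filter, 0 with a filter at 1 or 5 CPM or a split at 0.5 CPM, 275 with a split at 2 CPM, 668 with the split made on control cells (where 454 were higher, so the majority turned), and 64 to 145 when 1 library was left out. A test against a 2-fold change called 1260 genes higher and 1303 lower, of which 790 and 1256 reached 1 CPM in null cells, and by its construction it lowers the count of every list. Leaving out 1 library gave 4423 to 4750 higher and 4469 to 4769 lower genes, and 3318 to 3674 positive and 3381 to 3662 negative differences between the lines. DESeq2 called 4964 and 4939. With the replicate block 4620 genes were higher and 4748 lower. Deviations of same-numbered tumors and cells correlated at 0.056, 0.098, 0.183 and −0.052. Differently numbered pairs were not set beside them, so these values cannot tell whether the number pairs libraries. The block is given for completeness. Of 3288 values for named genes under the alternatives, 3232 kept their direction and side of the threshold, 53 lost the call and 3 gained it. Of 2459 list counts and medians 260 moved, and of 46 chromosome medians 10. On simulated counts in which only a small part of the genes changed, a log2 change of 0.5 was recovered in 23.9% of genes. Most tested genes were called in the data, so that share does not carry over, though small changes may be missed. With a filter at 5 CPM no red cell marker was left for a median. Human and host reads cannot be told apart in these counts.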

Other observations

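Zinc finger genes of chromosome 19 were higher in the DDX4-null tumors as a group. These genes, whose symbols begin with ZNF, code for DNA-binding repressors that lie in clusters on that chromosome. Of 201 tested, 176 were higher and 5 lower, against 34.6% and 35.3% over all genes. The median change was 1.09, against 0.42 in the control line. The difference between the lines was positive for 118 and negative for 5, against 26.0% and 26.8% over all genes. They summed to 4056, 4836, 4834 and 4476 CPM in the null tumors and 2284 to 2732 CPM in the null cells, with no overlap, and to 3124 to 3656 CPM in control cells and 4295 to 5028 CPM in control tumors. Of 208 tested ZNF genes on other chromosomes, 92 were higher and 35 lower, with a median of 0.29. The other 745 tested genes of chromosome 19 had a median of 0.14, with 300 higher and 198 lower. This group was chosen after the values were seen.

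Runs of at least 3 neighbouring genes that all changed 6-fold or more in one direction, with 3 CPM or more in the higher group, were searched among 11684 genes in RefSeq order. There were 9 runs with 38 genes, 7 higher and 2 lower in the null tumors. Besides the run from PICALM to PRSS23, 4 were of ZNF genes on chromosome 19. A run on chromosome 5 held 7 genes of the gamma protocadherin cluster, among them PCDHGB2, whose shared last exons make reads hard to assign to 1 member. A run on chromosome 17 held GAS7 and the skeletal muscle myosins MYH4, MYH1 and MYH2. It rests on group means, and these myosins did not pass the filter and were not tested. In null tumor 3 they were at 0.428, 0.122 and 0.245 CPM, whereas MYH4 reached 42.8 CPM in null tumor 4. The lower runs were SMCP, IVL and S100A9 on chromosome 1, and GALC, GPR65 and KCNK10 on chromosome 14. The search was made after the data were seen, and no chance level was computed for it.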
